A study of Mus musculus with 4 samples.

Results

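Histone deacetylases, sirtuins and the enzymes that write and erase histone acetylation and methylation were followed in YAMC cells given medium conditioned by Lactobacillus GG (LGG). The members were taken by name: every probe set whose only gene symbol begins with Hdac, Sirt, Kdm, Kmt, Kat, Setd or Ezh and a digit, which gave 68 of the 22690 probe sets on the array, for 45 genes. YAMC cells derive from young adult mouse colon and are conditionally immortal through a temperature-sensitive viral T antigen. One group was kept for 16 h with LGG conditioned medium and the other had no treatment, and each group has 2 mouse 430A arrays of total RNA, 1 at each of 2 dates named in the titles. All arrays come from the same kind of cell, and the labels name no separate cultures, so the p-values measure the spread between arrays, which may be technical. Cells given unconditioned medium were not analysed here, so products of the bacteria cannot be told apart from effects of spent medium.

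Histone tails carry acetyl and methyl groups on lysines. Acetyltransferases (Kat) add acetyl groups, which mark open chromatin, and zinc-dependent deacetylases (Hdac) and NAD-dependent sirtuins (Sirt) remove them. Methyltransferases (Kmt, Ezh and several Setd enzymes) and demethylases (Kdm) set methyl marks that go with active or silent genes, depending on the lysine. In the colon, short-chain fatty acids made by bacteria are known inhibitors of the zinc-dependent deacetylases, an effect on the protein that an mRNA array does not measure.

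None of these enzymes passed the test for a difference between cells with LGG conditioned medium and untreated cells. The table holds linear intensities, and 44 of the 68 probe sets, for 35 genes, had a value on every array and a mean intensity of at least 101, the level set for testing. The other 10 genes had no tested probe set. Of the 44 probe sets, limma with the date as a block called 0 at a Benjamini-Hochberg adjusted p under 0.05, against 6.55% of all 10333 probe sets tested, of which 2.69% were higher and 3.86% lower with LGG. At an unadjusted p under 0.05 there were 8 (18.2%), 4 higher and 4 lower, against 20.5% of all probe sets (9.6% higher and 10.9% lower). The median log2 change of the 44 was -0.02, with a median size of 0.22, against 0.01 and 0.25 for all probe sets. The fitted changes ran between -0.95 for Kat6b and 0.96 for Sirt4, and the smallest adjusted p was 0.0503, for Kat6b. Without date as a block the smallest adjusted p was 0.133. In RNA from a whole culture, fewer expressing cells and less RNA per cell cannot be told apart. All log2 changes are LGG minus untreated on log2(intensity + 25.25), a scale that understates the change of dim probe sets.

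The treated and untreated arrays did not overlap for 21 of the 44 probe sets, 10 higher and 11 lower with LGG, which is 47.7% against 47.0% of all probe sets tested. The ratio had the same sign at both dates for 24 of the 44 (54.5%, against 64.1% of all). On the scale of the fit, log2(intensity + 25.25), it was at least 1.5-fold in the same direction at both dates for Hdac5 among the higher ones, where the share over all probe sets was 3.52%, and for 1 probe set each of Kat6b, Kdm5b and Kmt2a among the lower ones, where it was 4.41%. The share with groups that do not overlap and the share at an unadjusted p under 0.05 are thus near those of the whole array, and the difference in the share that kept one sign was not tested. The Kdm5b probe set counted among the lower ones, 1427142_s_at, reached a group mean of 101 only on the untreated arrays. The 2 dates differed in the direction of the median. It was 0.09 at date 1 and -0.07 at date 2 for the enzymes and -0.04 and 0.05 for all probe sets.

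**Figure D1:**
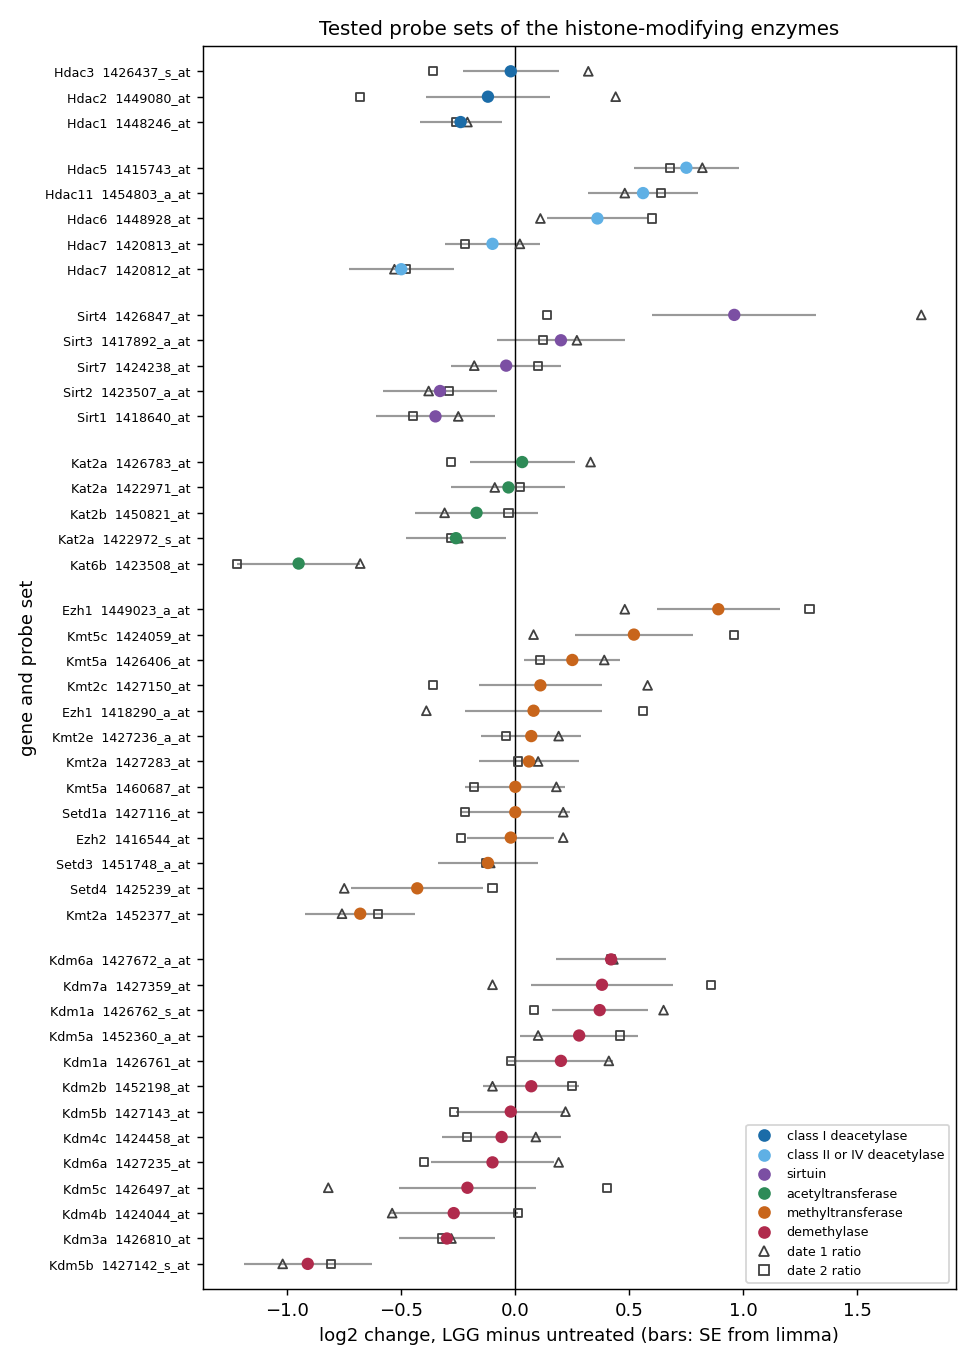
Log2 change of each of the 44 probe sets tested, LGG minus untreated, by enzyme group. Filled circles are the limma estimates with their SE, and open triangles and squares are the ratios at date 1 and date 2. Kat6b and the Kdm5b probe set 1427142_s_at lie farthest to the left, and Sirt4 farthest to the right with its date 1 ratio at 1.78 and its date 2 ratio at 0.14.

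**Figure D2:**
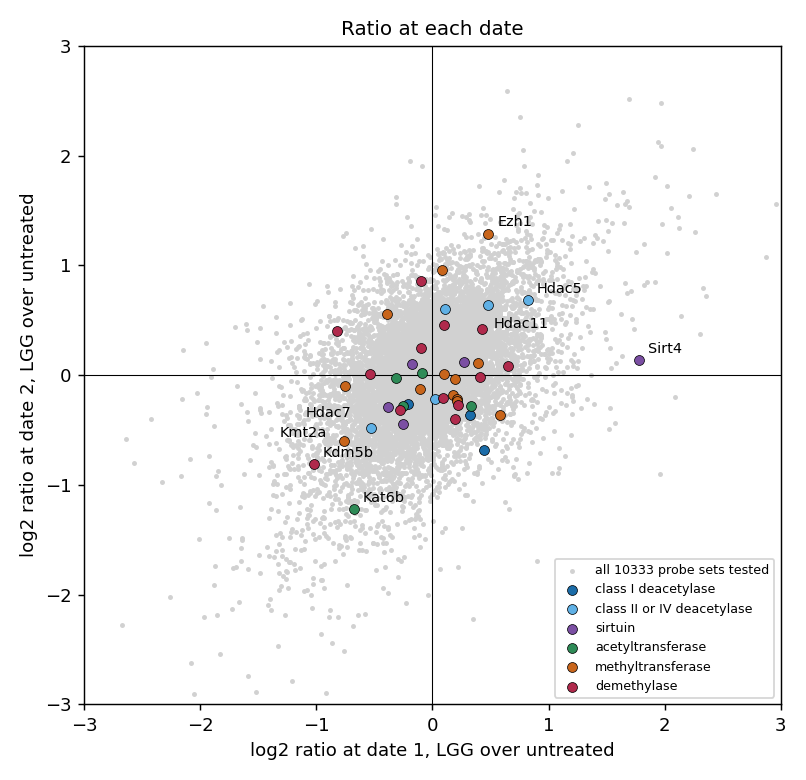
Log2 ratio of LGG over untreated at date 1 (x axis) and date 2 (y axis). Grey points are all 10333 probe sets tested, of which 13 lie beyond the axis limits, and coloured points are the 44 probe sets of the enzymes. The labelled probe sets of Hdac5 and Hdac11 lie above 0 at both dates, and those of Kat6b, Kdm5b, Kmt2a and Hdac7 below 0 at both. Kdm5b, Kmt2a and Hdac7 each have another probe set that is not below 0 at both.

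The cells were checked against markers of the labelled tissue. Of 11 colon epithelial markers measured, 3 had a mean of at least 101, the keratin genes Krt8, Krt18 and Krt19, while Epcam lay between 8.5 and 9.0 on the LGG arrays and between 6.0 and 7.0 on the untreated arrays, and Cdh1 reached no more than 26.0 and 41.8. The tight junction gene Cldn7 lay below that level too, between 70.9 and 93.5 on the LGG arrays and between 26.4 and 67.9 on the untreated arrays. Of 7 mesenchymal markers 5 passed the level, with summed intensities of 27544.8 to 31651.1 with LGG and 29822.7 to 35879.2 untreated. Of 4 blood cell markers 0 passed it, with sums of 89.3 to 243.3 with LGG and 196.2 to 206.1 untreated. Keratin genes were thus read on every array while the surface marker Epcam was near 0 and Cdh1 and Cldn7 stayed under the level needed for testing. Of 3 endothelial markers only Kdr passed that level, with summed intensities of the list at 400.8 to 450.2 with LGG and 212.9 to 248.9 untreated. Kdr alone made the higher sum, at 396.5 and 329.2 with LGG, against 136.2 and 128.9 untreated (adjusted p = 0.00924 by limma). The other markers of the list did not move with it: Pecam1 measured 12.1 and 21.3 with LGG, against 48.0 and 34.1 untreated, and Cdh5 41.6 and 50.3 with LGG, against 64.7 and 49.9 untreated. The part of Kdr in the values of the enzymes was not tested.

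The promoters of 4 genes are shown because their probe sets had among the largest changes of the same sign at both dates, Hdac5 and Ezh1 on the higher side and Kat6b and Kdm5b on the lower side. Each is the 250 bases before the first listed start of the gene in RefSeq (build GRCm38.p6), written 5′ to 3′ on the gene's strand. For Hdac5, Ezh1 and Kdm5b this start is the end of the annotated gene, and for Kat6b it is not. The windows are chr11:102230173-102230422 on the minus strand, chr11:101226464-101226713 on the minus strand, chr14:21499520-21499769 on the plus strand and chr1:134559928-134560177 on the plus strand. Capitals mark the GC box GGGCGG and the CCAAT box on either strand, with overlapping matches counted.
Hdac5: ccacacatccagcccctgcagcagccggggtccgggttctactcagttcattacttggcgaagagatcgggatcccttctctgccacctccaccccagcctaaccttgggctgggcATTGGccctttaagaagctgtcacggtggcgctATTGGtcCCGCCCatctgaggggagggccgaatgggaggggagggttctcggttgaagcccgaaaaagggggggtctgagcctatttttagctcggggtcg
Ezh1: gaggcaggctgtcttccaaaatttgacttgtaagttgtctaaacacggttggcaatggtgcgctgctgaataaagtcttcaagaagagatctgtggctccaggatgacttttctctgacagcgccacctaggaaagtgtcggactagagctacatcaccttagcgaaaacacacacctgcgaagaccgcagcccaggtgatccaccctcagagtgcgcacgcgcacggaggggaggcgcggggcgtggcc
Kat6b: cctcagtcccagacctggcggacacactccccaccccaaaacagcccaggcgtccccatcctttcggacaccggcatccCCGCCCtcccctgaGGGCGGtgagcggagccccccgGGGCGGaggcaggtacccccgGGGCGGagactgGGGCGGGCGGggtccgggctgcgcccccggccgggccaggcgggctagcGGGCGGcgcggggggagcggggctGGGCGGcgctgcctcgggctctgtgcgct
Kdm5b: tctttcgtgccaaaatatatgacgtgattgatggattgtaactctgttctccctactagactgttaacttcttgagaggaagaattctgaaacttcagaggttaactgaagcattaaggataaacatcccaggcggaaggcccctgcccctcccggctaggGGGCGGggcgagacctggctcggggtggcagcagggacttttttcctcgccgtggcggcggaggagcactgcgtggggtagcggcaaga
The Kat6b window held 8 GC boxes and 27 CpG dinucleotides, the Kdm5b window 1 and 13, the Hdac5 window 1 with 2 CCAAT boxes and 12 CpG, and the Ezh1 window neither box and 14 CpG. Of the 45 genes 38 had a promoter in the table. A GC box stood in 21 of these 38 (55.3%), against 32.9% of 27025 promoters, a CCAAT box in 15 (39.5%, against 34.5%) and the E-box CACGTG in 2 (5.26%, against 6.05%). The median CpG count was 16.5 in the enzymes' windows and 6 over all promoters. The 27025 promoters, 1 a gene, also cover genes that the array does not read, and the array's own genes were not compared. A match describes the letters of the window and is no evidence of a bound factor.

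The class I deacetylases read here, Hdac1, Hdac2 and Hdac3, are catalytic subunits of large nuclear corepressor complexes. Their fitted log2 changes lay between -0.24 and -0.02, and none passed. Hdac1, a subunit of the Sin3, NuRD and CoREST complexes, had intensities of 1980.7 and 1858.4 on the LGG arrays of dates 1 and 2, against 2299.2 and 2228 on the untreated arrays. The groups did not overlap, and the log2 change was -0.24 ± 0.18 (SE, limma adjusted p = 0.499, 95% interval -0.61 to 0.14). Hdac2, its close paralog, measured 747 and 334.6 with LGG, against 545.8 and 551.5 untreated. Its treated arrays thus lay on either side of the untreated ones, at log2 ratios of 0.44 (date 1) and -0.68 (date 2). Hdac3, the deacetylase of the NCoR and SMRT complexes, measured 1543.9 and 1223.2 with LGG, against 1231.3 and 1576.1 untreated. It too had a ratio above 0 at date 1 (0.32) and below 0 at date 2 (-0.36), and its fitted change of -0.02 has an interval of -0.48 to 0.44.

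Of the other zinc-dependent deacetylases, Hdac5, Hdac6 and Hdac11 were read higher with LGG at both dates and Hdac7 lower by 1 of 2 probe sets, and none passed. Hdac5, a class IIa enzyme that shuttles between nucleus and cytoplasm and represses MEF2 factors, measured 768.6 and 666.1 with LGG, against 423.5 and 407 untreated. Both treated arrays lay well above both untreated ones, and the log2 change was 0.75 ± 0.23 (limma adjusted p = 0.0684, 0.153 without date as a block), a 1.68-fold difference. Hdac11, the only class IV enzyme, which also removes fatty acyl groups from proteins, measured 416.8 and 415.3 with LGG, against 291.9 and 258.3 untreated (log2 change 0.56 ± 0.24, adjusted p = 0.206). A second, dimmer Hdac11 probe set, 1451229_at, was below the level for testing and measured 108.6 and 161 with LGG, against 38 and 64.2 untreated. Both Hdac11 probe sets were thus higher on the treated arrays at each date. Hdac6, a class IIb enzyme known for deacetylating tubulin in the cytoplasm, measured 952.8 and 1345.3 with LGG, against 879.6 and 879.8 untreated (log2 change 0.36 ± 0.22, adjusted p = 0.393), with most of the difference at date 2.

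Hdac7, another class IIa enzyme, was read by a pair of probe sets. By 1420812_at it measured 478 and 338.3 with LGG, against 699.5 and 481.5 untreated, a log2 change of -0.50 ± 0.23 (adjusted p = 0.233) with ratios of -0.53 and -0.48 at the dates. The treated array was below the untreated one of its own date by about the same ratio, while both groups were lower at date 2. By the brighter 1420813_at it measured 1153.8 and 691.1 with LGG, against 1135.6 and 807 untreated, and the log2 change was -0.10 ± 0.21 (adjusted p = 0.852). The probe sets therefore differ in how much of a difference they show. Hdac9, also of class IIa, measured 6.2 and 14 with LGG, against 10 and 33.9 untreated, below the level for testing.

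Of the sirtuins, Sirt1 and Sirt2 were lower on both treated arrays and Sirt3 and Sirt4 higher, all without passing. Sirt1, the nuclear deacetylase of histones and many transcription factors, measured 183.1 and 147 with LGG, against 222.6 and 209.9 untreated (log2 change -0.35 ± 0.26, adjusted p = 0.495, 95% interval -0.91 to 0.21). Sirt2, which acts mainly in the cytosol, measured 207.5 and 254.8 with LGG, against 277.4 and 316.9 untreated (-0.33 ± 0.25, adjusted p = 0.494). In both genes the groups did not overlap, and the intervals of the fit include 0. The mitochondrial enzyme Sirt4 measured 160.2 and 150.9 with LGG, against 28.6 and 134.8 untreated. Its log2 change of 0.96 ± 0.36 (adjusted p = 0.142) was 0.18 without untreated replicate 1, the array that read 28.6, and 1.75 without untreated replicate 2. Sirt3, the main mitochondrial deacetylase, measured 127.6 and 107.3 with LGG, against 101.4 and 96.4 untreated (0.20, adjusted p = 0.756), and Sirt7, a nucleolar sirtuin, 367.5 and 368.1 with LGG, against 419.7 and 342.4 untreated (-0.04). Sirt3 and Sirt4 are among 5 probe sets, with Setd4, Kdm7a and 1 of Kdm5b, that reached the level for testing in the mean of 1 group and not of the other.

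**Figure D3:**
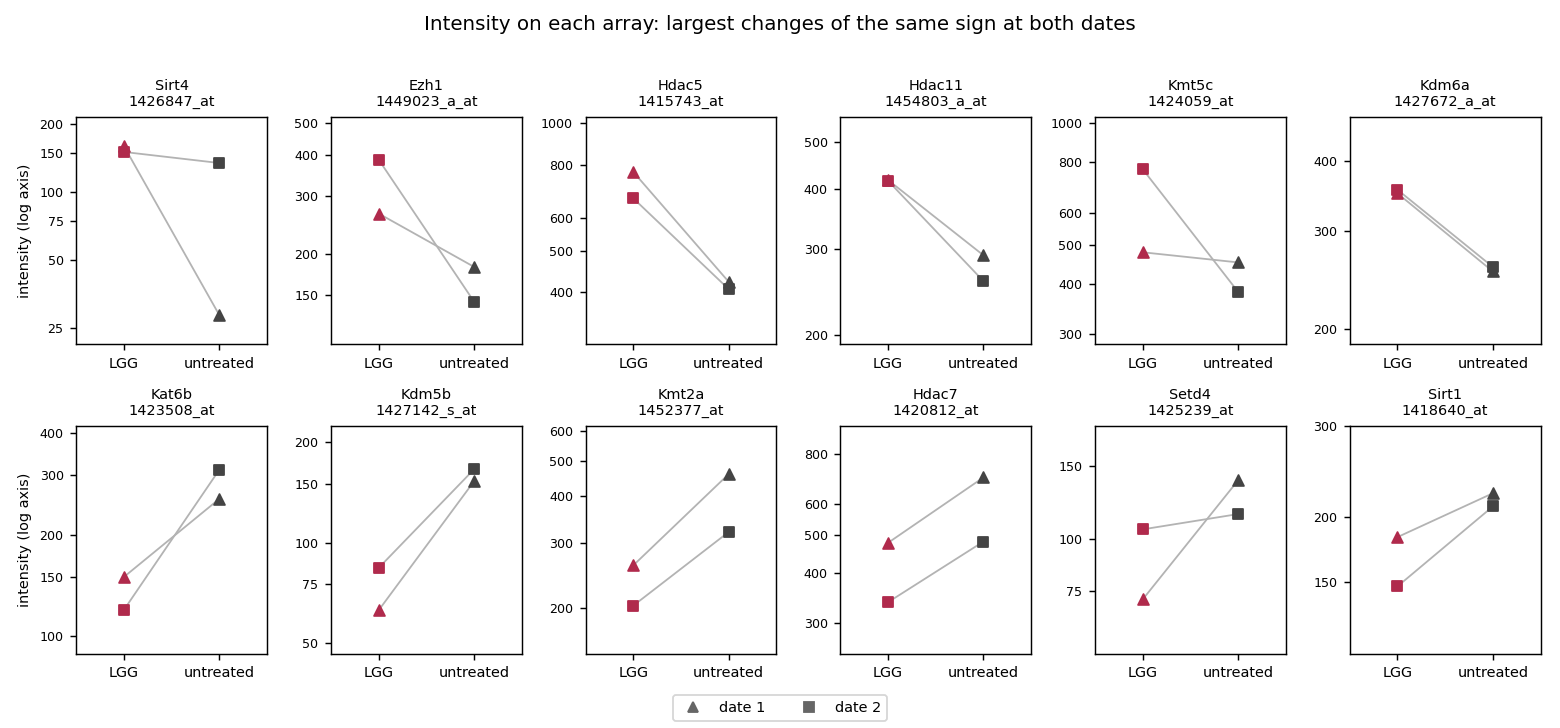
Intensity on each array, on a log axis, for the 6 probe sets with the largest higher (top) and the 6 with the largest lower (bottom) fitted changes among those of the same sign at both dates. LGG arrays stand left of untreated arrays, triangles are date 1, squares are date 2 and lines join arrays of one date. In all 12 panels the groups do not overlap, with Sirt4 set apart by the untreated array at 28.6. The choice by large changes of one sign favours such panels. Over all 10333 probe sets tested the share without overlap was 47.0%.

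The acetyltransferases gave the lowest adjusted p of the family. Kat6b, a MYST acetyltransferase of histone H3, measured 149.8 and 119.6 with LGG, against 255.5 and 311.8 untreated, so that both treated arrays lay below both untreated ones. Its log2 change was -0.95 ± 0.27, 1.93-fold lower with LGG (adjusted p = 0.0503, 0.133 without date as a block), with ratios of -0.68 at date 1 and -1.22 at date 2. Kat2a, the GCN5 acetyltransferase of the SAGA and ATAC coactivators, was read by 3 probe sets with log2 changes of -0.26, -0.03 and 0.03. The one at -0.26, 1422972_s_at, measured 706.4 and 600 with LGG, against 845.2 and 732.3 untreated (adjusted p = 0.547). The probe set 1426783_at measured 783.7 and 596.9 with LGG, against 616.5 and 732.1 untreated, and 1422971_at measured 270.1 and 207.8 with LGG, against 289.4 and 203.9 untreated, so the probe sets of Kat2a do not have one sign. Kat2b, also called PCAF and the paralog of Kat2a, measured 120.4 and 146.1 with LGG, against 155.1 and 149.1 untreated (-0.17 ± 0.27, adjusted p = 0.790).

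Among the methyltransferases the 2 catalytic subunits of Polycomb complex PRC2, which places the silencing methyl mark on histone H3, gave different values. Ezh2, the subunit of dividing cells, measured 2524.6 and 1695.1 with LGG, against 2179.8 and 2011.9 untreated, with a log2 change of -0.02 ± 0.19 (adjusted p = 0.975, 95% interval -0.42 to 0.38). Ezh1, its paralog of resting cells, measured 266 and 387.9 by 1449023_a_at with LGG, against 183.2 and 143.7 untreated. That is a log2 change of 0.89 ± 0.27 (adjusted p = 0.0744, 0.180 without date as a block), with ratios of 0.48 at date 1 and 1.29 at date 2. The second Ezh1 probe set, 1418290_a_at, measured 90.3 and 215.8 with LGG, against 126.3 and 138.2 untreated (0.08 ± 0.30, adjusted p = 0.915). At date 1 it thus lay below the untreated array where the first lay above it. No test of the difference between Ezh1 and Ezh2 was made.

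Most Kmt2 enzymes and Setd1a methylate H3 at active promoters and enhancers. Kmt2a, also called MLL, measured 260.3 and 202.5 by 1452377_at with LGG, against 459.8 and 320.5 untreated (log2 change -0.68 ± 0.24, adjusted p = 0.124). By the brighter 1427283_at it measured 968.9 and 579 with LGG, against 901.8 and 574 untreated (0.06 ± 0.22, adjusted p = 0.923). The first probe set had ratios of -0.76 and -0.60 at the dates and the second 0.10 and 0.01, so the lower signal of Kmt2a appeared in 1 of 2 probe sets. Kmt2c measured 389.9 and 227.3 with LGG, against 253.2 and 298 untreated (0.11, adjusted p = 0.875), and Kmt2e 707.4 and 591.5 with LGG, against 616.3 and 609.7 untreated (0.07, adjusted p = 0.897). Setd1a, a catalytic subunit of COMPASS, had a fitted change of -0.00 ± 0.24 (95% interval -0.51 to 0.50).

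The Kmt5 enzymes methylate histone H4, Kmt5a adding the first methyl group and Kmt5b and Kmt5c the next ones. Kmt5a measured 1355 and 711.9 by 1426406_at with LGG, against 1025.2 and 658.2 untreated, and 1118.1 and 550.9 by 1460687_at with LGG, against 984.5 and 629.1 untreated. Both probe sets were lower at date 2 than at date 1 in both groups, with fitted date differences of -0.76 and -0.81 (adjusted p = 0.176 and 0.165), and their changes with LGG were 0.25 and -0.00. The date term passed for 0 of the 44 probe sets, against 0.513% of all. Kmt5c measured 478.5 and 768.3 with LGG, against 451.6 and 381.8 untreated (0.52 ± 0.26, adjusted p = 0.274), with ratios of 0.08 at date 1 and 0.96 at date 2. Of the Setd enzymes, Setd3, which methylates actin on a histidine, measured 589.2 and 745.9 with LGG, against 639 and 817.6 untreated (-0.12, adjusted p = 0.817). Setd4 measured 71.7 and 105.5 with LGG, against 138.3 and 114.8 untreated (-0.43 ± 0.29, adjusted p = 0.458), while its dimmer probe set 1460373_a_at, not tested, measured 53.2 and 70.6 with LGG, against 38.3 and 54.9 untreated. The Setd4 probe sets thus point in opposite directions.

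Of the 13 demethylase probe sets tested, 6 had fitted changes above 0 and 7 below, and the median was -0.02. Kdm5b, which removes methyl groups that mark active promoters, measured 62.6 and 83.9 by 1427142_s_at with LGG, against 152.6 and 165.8 untreated (log2 change -0.91 ± 0.28, adjusted p = 0.0724, 0.156 without date as a block). By the brighter 1427143_at it measured 404.8 and 371.8 with LGG, against 343.6 and 454 untreated (-0.02 ± 0.24, adjusted p = 0.972). The dim probe set had a mean of 73.25 with LGG, under the level for testing, and of 159.2 untreated. It thus reached that level through the untreated arrays alone. The dim probe set was about the same ratio lower at each date, and the bright one had ratios of 0.22 and -0.27. A suffix _s_at marks probes that can match transcripts of more than 1 gene, so the dim signal is less certain to be that of Kdm5b alone. Kdm5a measured 171 and 237.1 with LGG, against 157.5 and 165.3 untreated (0.28, adjusted p = 0.606), and Kdm5c 186.6 and 255.1 with LGG, against 348.6 and 187 untreated (-0.21, adjusted p = 0.759).

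Kdm1a, also called LSD1, the demethylase that works with deacetylases in CoREST, measured 1551.2 and 1378.4 by 1426762_s_at with LGG, against 976.5 and 1306.2 untreated (0.37 ± 0.21, adjusted p = 0.366). Its second probe set, 1426761_at, measured 711.4 and 757.9 with LGG, against 527.7 and 770.6 untreated (0.20, adjusted p = 0.692). Both showed most of the difference at date 1. Kdm6a, also called UTX, which removes the Polycomb mark, measured 349.7 and 354.9 by 1427672_a_at with LGG, against 253.7 and 258.4 untreated. The arrays of each group nearly coincided there, and the log2 change was 0.42 ± 0.24 (adjusted p = 0.358), with an SE set by variance shared across probe sets. By 1427235_at Kdm6a measured 201.3 and 218.4 with LGG, against 173.1 and 296.1 untreated (-0.10, adjusted p = 0.877). Kdm3a, a hypoxia-induced demethylase of H3, measured 676 and 813.1 with LGG, against 824.5 and 1018.8 untreated (-0.30 ± 0.21, adjusted p = 0.478), with ratios of -0.28 and -0.32 at the dates. Kdm2b, which brings Polycomb complex PRC1 to CpG islands, Kdm4b, Kdm4c and Kdm7a had log2 changes of 0.07, -0.27, -0.06 and 0.38, none of which passed.

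Of the 8 genes with several probe sets tested, Kat2a, Kmt2a, Kmt5a and Kdm6a had probe sets of opposite sign. For Hdac7, Ezh1, Kdm5b and Kdm1a the signs were alike and the sizes unequal, with the largest gap for Kdm5b (-0.91 and -0.02). The cause of these gaps was not tested.

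A further 14 probe sets had values at date 2 alone, since both arrays of date 1 hold none for them, and each rests on 1 array per group with no replicate check. Of the 10 with a mean of at least 101, 4 were at least 1.5-fold lower and 2 at least 1.5-fold higher with LGG on the scale of log2(intensity + 25.25), against 11.5% and 11.2% of 3675 such probe sets. Another, 1428797_at of Setd6, was 1.53-fold higher in plain intensity and fell short of 1.5-fold on that scale. Kmt5b, which adds the later methyl groups to histone H4, measured 148.5 by 1434999_at with LGG, against 419.9 untreated, and 191.2 by 1455171_at with LGG, against 423.4 untreated. These are 2.83-fold and 2.21-fold lower plain intensities with LGG, but the Kmt5b probe sets read at both dates were dim and gave no such difference, with 1425740_at at 90.1 and 85.3 with LGG, against 23.4 and 71.2 untreated, and 1451817_at at 57 and 107.8 with LGG, against 87.2 and 96.4 untreated. Kmt2e measured 505.1 by 1434704_at with LGG, against 973.4 untreated, while its tested probe set had a ratio of -0.04 at the same date. Kat6a, the paralog of Kat6b, measured 779.1 with LGG, against 1244.6 untreated.

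On the higher side, Kdm3b, a paralog of Kdm3a, measured 1492.5 with LGG, against 951.4 untreated. Setd6, which methylates the NF-kappaB subunit RelA, measured 276 by 1428798_s_at with LGG, against 166.8 untreated, and 231.3 by 1428797_at with LGG, against 151.2 untreated. Both Setd6 probe sets were thus higher with LGG. Kat7, also called HBO1, measured 1466.5 by its brighter probe set with LGG, against 1239.6 untreated, and 144.4 by the other with LGG, against 152.5 untreated. The bright Kat2b probe set 1434037_s_at measured 986.1 with LGG, against 1195.6 untreated. The 4 remaining ones, of Kdm5d with 2, Kmt2d and Setd4, lay between 12.9 and 60.6 with LGG and between 12.5 and 50.7 untreated.

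**Figure D4:**
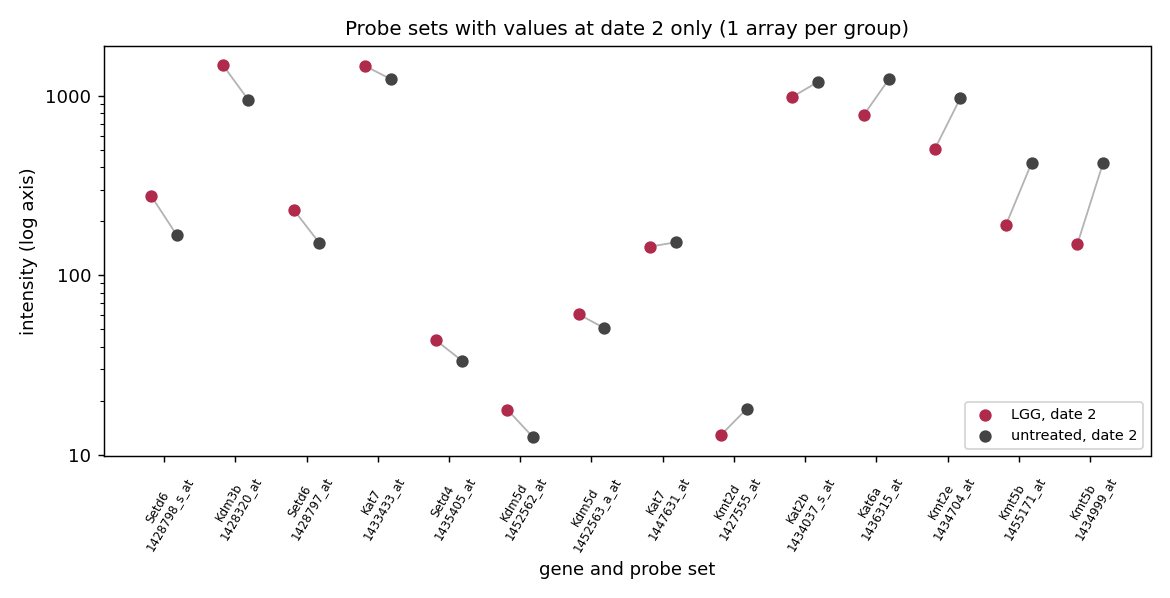
Intensity at date 2, on a log axis, for the 14 probe sets with no value at date 1, LGG left of untreated and lines joining the 2 arrays. Those to the right, ending with both probe sets of Kmt5b, are lower with LGG, and those to the left, with both probe sets of Setd6 and that of Kdm3b, are higher.

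The last 10 probe sets had values on every array and a mean under 101. Beside those of Hdac11, Hdac9, Kmt5b and Setd4 already given, Setd7, which adds a single methyl group to histone H3, measured 53.7 and 69.3 with LGG, against 70 and 91.7 untreated. Kdm8 measured 113.8 and 59.4 with LGG, against 118.7 and 99.7 untreated, and the Y-linked Kdm5d 48.8 and 25.7 by 1424903_at with LGG, against 23 and 29.2 untreated. The second probe sets of Kdm5c and Setd1a lay between 30.8 and 53.7 with LGG and between 28.1 and 48.5 untreated. For dim probe sets no bound against background can be given, because no detection calls were used here.

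Genes that work with these enzymes were looked at in 9 lists, chosen with earlier results of these data known, with 132 probe sets tested for 88 genes. Of these, 3 rose and 4 fell (5.30%, against 6.55% of all), with a median log2 change of 0.00, and 0 of the 7 passed without date as a block. Prmt1, the main arginine methyltransferase of histone H4, was the 1 of 16 probe sets of other histone methyltransferases that changed. It measured 1123.2 and 1249 with LGG, against 2542.7 and 2125.6 untreated, and fell by a log2 change of -0.96 ± 0.19 (limma adjusted p = 0.0106, 0.0650 without the block). Of 5 probe sets of other acetyltransferases, Ncoa3, a coactivator of nuclear receptors, rose with 471.4 and 658.8 with LGG, against 287.1 and 308.5 untreated (0.85 ± 0.24, adjusted p = 0.0498, 0.156 without the block).

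Of 30 probe sets of the corepressor complexes that hold Hdac1, Hdac2 or Hdac3, 1 rose and 0 fell, with a median of 0.06. The one that rose was Ing2, a Sin3 subunit that reads methylated H3, at 679.7 and 707.1 with LGG, against 310.1 and 410.1 untreated (0.91 ± 0.23, adjusted p = 0.0327). Of 24 probe sets of Polycomb complexes beside Ezh1 and Ezh2, Pcgf6, a PRC1 ring-finger subunit, rose with 836.1 and 1012.5 with LGG, against 398.3 and 542.7 untreated (0.95 ± 0.22, adjusted p = 0.0217). Its relative Bmi1 fell by 1448733_at with 209.9 and 180.9 with LGG, against 363.9 and 420.8 untreated (-0.92 ± 0.25, adjusted p = 0.0440). The brighter Bmi1 probe set 1417493_at had 711.9 and 532.1 with LGG, against 944.5 and 1002.6 untreated (-0.64, adjusted p = 0.119). The list as a whole had a median of -0.00. Without the block, the limma adjusted p was 0.115 for Ing2, 0.109 for Pcgf6 and 0.124 for Bmi1 by 1448733_at.

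Of 21 probe sets of bromodomain readers, Baz1b, a kinase and chromatin remodelling subunit, fell by 1420975_at with 476.7 and 743.3 with LGG, against 1136.4 and 1081.7 untreated (-0.87 ± 0.23, adjusted p = 0.0410), and its dimmer 1450068_at had a log2 change of -0.63 (adjusted p = 0.248). Of 15 probe sets of COMPASS subunits 0 passed by limma, with a median of -0.16, and Pagr1a and Ash2l had log2 changes of -0.61 and -0.57. At an unadjusted p under 0.05 there were 4 of these 15. Over all 9 lists there were 38 of 132, against 20.5% of all probe sets tested. For Baz1b (1420975_at) the limma adjusted p without the block was 0.15. Leaving out 1 array leaves 1 array in a group, so calls of those fits are not given for the lists. In them, without the block, the log2 change was -1.09 to -0.83 for Prmt1 and 0.62 to 1.08 for Ncoa3. It was 0.72 to 1.1 for Ing2 and 0.74 to 1.16 for Pcgf6. For Bmi1 (1448733_at) it was -1.02 to -0.82, and for Baz1b (1420975_at) -1.18 to -0.56.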

How the data were processed

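Total RNA, prepared with Trizol and a Qiagen kit per the labels, was hybridised to mouse 430A arrays, 4 in all. The authors deposited linear intensity values. For software, scaling and detection calls, none is given in the sources used here. The trimmed means, without the lowest and highest 2%, were 506.1 and 500.1 on the LGG arrays and 513.5 and 500.1 on the untreated arrays. Each is over the probe sets with a value on that array, so the 2 dates are not compared over the same probe sets. Values were used as deposited, and precision is limited by how few arrays there are. Both arrays of date 1 lacked values for 6307 probe sets.

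Values were taken as log2(intensity + 25.25), 5% of the trimmed mean, after 64 control probe sets were set aside, and the 10333 probe sets with a value on every array and a mean of at least 101 (20%) were tested. limma 3.58.1 in R 4.3.3 fitted group and date, with eBayes and an intensity trend, and p-values were adjusted by Benjamini-Hochberg over all of them. The fit has 1 residual and 12.5 prior degrees of freedom, so SE and p rest mostly on variance shared across probe sets. With 2 arrays a group, the smallest two-sided permutation p is 0.333 when the date is ignored, and larger when arrays are exchanged only within a date. The titles pair the arrays by date, and over probe sets, the differences between dates in LGG and in untreated arrays had a correlation of 0.271. The fit was tested on simulated data. At a prior close to that of the fit, the share of false calls exceeded the threshold and many 2-fold changes were missed, so a probe set that did not pass may still differ.

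Names came from the platform annotation. Members and lists were chosen with earlier results of these data known. Values on every array are given for members that passed and for up to 6 more in each direction whose fitted change was largest among those agreeing in sign between dates. They are also given for 21 fixed gene symbols, of which 16 were tested. Other members and list genes named beyond this were chosen after their values were seen. Alternatives changed the block, pseudocount, filter, normalization, trend and arrays. Figures used matplotlib 3.10.9.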

Additional observations from a re-analysis of the deposited data

How the results depend on the processing

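No member passed in any of 12 alternatives: no replicate block, pseudocounts of 1 and of 20% of the trimmed mean, no filter, a filter at 50%, quantile normalization, median scaling, no trend and leaving out each array, the last in fits without the block. The smallest adjusted p of the 25 probe sets followed was 0.0505 in these. The members at an unadjusted p under 0.05 were 4 with the filter at 50%, where fewer are tested, and 2 to 10 with 1 array left out, against 8. Over all probe sets 677 passed, against 97 with no replicate block, 0 without the filter, 378 without the trend and 0 to 638 with 1 array left out. With no filter 2296 probe sets had an unadjusted p under 0.05. With the filter at 50% it was 1667 of 7515, against 2117 of 10333 in the main fit. Over all probe sets this number rose without LGG replicate 1 and fell without each other array, as did that of the members. The members' median was -0.17 to 0.12 with 1 array left out, against -0.02, and also -0.02 over the 35 genes by their brightest probe set. In the other lists 7 passed, against 0 with no replicate block and 0 to 6 with 1 array left out, refits added after the data were seen.

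Of 293 refits of single probe sets 280 kept their sign and 13 reversed, all with 1 array left out. With 1 array left out the log2 change was -0.67 to 0.43 for Hdac2, -0.19 to 0.16 for Hdac3, -0.46 to 0.26 for Hdac7 (1420813_at), -0.30 to 0.27 for Ezh2, -0.21 to 0.16 for Kdm5b (1427143_at), -0.30 to 0.42 for Kmt2a (1427283_at) and -0.20 to 0.70 for Kmt5a (1426406_at). The cause was not tested.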

Other observations

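DNA methylation enzymes, which act beside the histone enzymes, had 9 probe sets tested, of which 1 fell and 0 rose (median log2 change -0.17). Uhrf1, which brings the maintenance methyltransferase to replicating DNA, measured 464.6 and 480.4 by 1415811_at with LGG, against 824.9 and 1028.9 untreated, and fell by a log2 change of -0.93 ± 0.22 (limma adjusted p = 0.0247, 0.0984 without date as a block). Fits with an array left out also drop the block and leave 1 array in a group. They cannot show whether the call of Uhrf1 rests on a single array, so their calls are not given for it. In them the log2 change of Uhrf1 by 1415811_at was -1.08 to -0.77. Its brighter probe set 1415810_at measured 1184.1 and 749.7 with LGG, against 1346.6 and 1487.9 untreated (-0.57, adjusted p = 0.167). Dnmt1, the maintenance methyltransferase itself, measured 2728.1 and 2350.5 with LGG, against 3718.3 and 2867.3 untreated (-0.36, adjusted p = 0.228). The base excision glycosylase gene Mbd4 measured 598.4 and 687.5 with LGG, against 395.7 and 416.5 untreated (0.63, adjusted p = 0.131), and the groups did not overlap.

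Genes known to be raised by deacetylase inhibitors had 3 probe sets tested, for 2 genes, and 0 passed by limma. At an unadjusted p under 0.05 there were 2, both of Cdkn1a, where the share over all probe sets was 20.5%. Cdkn1a, the cell cycle inhibitor p21, measured 4238.6 and 4070.3 by 1424638_at with LGG, against 6422.5 and 4976.4 untreated (log2 change -0.44 ± 0.15, adjusted p = 0.0953). Its other probe set, 1421679_a_at, measured 743 and 636.3 with LGG, against 1440.2 and 782.3 untreated (-0.61, adjusted p = 0.143). Gsn, which encodes the actin-severing protein gelsolin, measured 3854.7 and 3033.3 with LGG, against 4728.6 and 3677.9 untreated (-0.28, adjusted p = 0.313). All 3 tested probe sets were lower with LGG at both dates. Of the 6 genes listed, 4 had a probe set here. Tubb3 and Clu, too dim to be tested or with values at date 2 only, measured higher with LGG within each date. Tubb3, a neuronal tubulin, measured 108.4 and 143.4 with LGG, against 62.5 and 44.9 untreated, with groups that did not overlap. Clu, which encodes the chaperone clusterin, measured 80.3 and 116.3 by 1418626_a_at with LGG, against 62.5 and 87.6 untreated, and its probe sets read at date 2 alone were 1.1-fold to 1.18-fold higher. Of the Gsn probe sets read at date 2 alone, 3 were lower and 2 higher with LGG. Of the 9 tested probe sets of genes that supply or use NAD, the cosubstrate of sirtuins, 0 passed by limma. At an unadjusted p under 0.05 there was 1, against the same 20.5% of all probe sets. Nampt, the rate-limiting enzyme of NAD salvage, measured 766.2 and 1211.9 with LGG, against 700.1 and 976.4 untreated (0.22, adjusted p = 0.627), and Nnt, a mitochondrial transhydrogenase, 975 and 966.8 with LGG, against 1472.3 and 1340.3 untreated (-0.52, adjusted p = 0.154).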
